A study of Mus musculus with 12 samples.

Results

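The genes of the lysosome were followed in mouse dendritic cells that had been given γ-PGA nanoparticles, made of the biodegradable polymer poly(γ-glutamic acid). The list held 50 genes by name, covering hydrolases and their activators, membrane proteins, the transcription factor Tfeb and the subunits of the proton pump. A gene was measured where the RefSeq accession of an array probe mapped to its symbol. This gave 49 of 50 members, since Arsb had no matched probe, and all 49 passed the filter on dim probes, out of 18404 genes kept in all. They divided into 11 lipid hydrolases and activators, 9 glycan hydrolases, 4 other luminal proteins (a peptidase, 2 phosphatases and granulin), 8 membrane and cholesterol export proteins, Tfeb, and 16 proton pump genes.

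The cells were grown from the marrow of female mice aged 6 to 8 weeks, of a strain not given in the sources used here, with 20 ng/ml of the growth factor GM-CSF. Cells that did not adhere, or adhered loosely, were harvested on day 7 as immature dendritic cells. They were sampled at 0 h, or after 6, 12 or 24 h with 300 µg/ml of γ-PGA nanoparticles, with 3 samples at each time that the series describes as independent experiments. No culture without particles was sampled at 6, 12 or 24 h, so time in culture and exposure cannot be told apart. RNA was labelled with Cy3 and hybridised to Agilent mouse 1-colour arrays, 12 in all.

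The lysosome is the acidic compartment in which a cell degrades what it takes up and what it recycles from itself. Its hydrolases work only at low pH, which is kept by the vacuolar proton pump: the V1 sector in the cytosol splits ATP and the V0 sector in the membrane carries the protons. Many of these genes carry an E-box in the promoter that Tfeb and related factors bind. In dendritic cells lysosomal acidity and proteolysis are regulated during maturation and bear on how antigen is processed.

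Each sample had values from 2 sources, which are kept apart throughout. Scanner levels are log2 intensities of a probe minus the 75th percentile of its array, so they compare samples for a gene and not genes with each other. Table ratios are the linear values that the authors deposited, relative to the median of the 3 values at 0 h, and how columns were scaled to each other is not stated in the sources used here. A gene was called at a limma adjusted p under 0.05 over all 18404 genes together with a change of at least 2-fold. The words rose and fell are used for such calls.

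The sources did not describe the same course at 24 h. On the scanner, arrays labelled 24 h correlated at a mean r of 0.991 with those labelled 0 h over all genes kept, against 0.923 with 6 h and 0.91 with 12 h, and only 0.837% of all genes were called between 24 h and 0 h. In the table that share was 26.3%. Which source holds the sample named 24 h could not be settled from the files, so 24 h is described for each source alone. The share of spots well above background lay between 50.9% and 59.6% per array, and the signal at the 75th percentile ranged from 338.6 to 472.3 intensity units. The 3 arrays at 0 h and 1 at 6 h shared a slide, the others at 6 h shared a slide with 2 at 12 h, and the third at 12 h shared one with the 3 at 24 h.

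Of the 49 members, 47 were well above background on all 12 arrays. Acp5 and Atp6v1b2 were so on 11, and both lost 1 spot at 6 h as an outlier of the scanner software, so their scanner values at 6 h rest on 2 samples. The Grn probe was saturated on all 12 arrays and gives no fold change. That of Psap was saturated on every array at 0 h and 24 h.

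At 6 h the scanner values split the lysosome by function. Among the members 5 were called higher and 10 lower than at 0 h, where 10.2% of all genes were called higher and 15.9% lower (26.1% in all). Of the 16 proton pump genes 4 rose and 1 fell, and of the 24 hydrolases and other luminal proteins 1 rose and 7 fell. The median log2 change was 0.58 over the pump genes and -0.66 over the luminal proteins, beside -0.06 over all genes. By adjusted p alone 19 members were higher and 24 lower, beside 32.2% and 39.6% of all genes (71.8% in all). Fewer cells of a type and less RNA per cell cannot be told apart in such bulk samples. With quantile normalization in place of the 75th percentile the split was 1 higher and 13 lower, and with a normexp background and quantile normalization together it was 1 and 12: the pump genes then stood at a median of 0.33 and 0.30.

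The table ratios at 6 h also put the pump genes above the luminal proteins. There 12 members rose and 2 fell, beside 13.2% and 11.8% of all genes (25% in all). Of the pump genes 8 rose and 0 fell, with a median log2 change of 0.97 (6 rose with centring and 2 with quantile normalization), and of the luminal proteins 3 rose and 2 fell, with a median of 0.08. By adjusted p alone 33 members were higher and 10 lower, beside 40.9% and 30.3% of all genes (71.2% in all). The median over all genes was 0.14 at 6 h, 0.22 at 12 h and 0.12 at 24 h in this source, and 0.01, -0.05 and 0.02 once each sample was centred on its median. With that centring the luminal median at 6 h was -0.04 and with quantile normalization -0.07, so its sign depends on the scaling, and the split of all members under quantile normalization was 6 higher and 2 lower.

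Both sources called 6 members in the same direction at 6 h. The proton pump subunits Atp6v0b, Atp6v1c1, Atp6v1e1 and Atp6v1h were higher in both, and the glycan hydrolases Manba and Sgsh were lower in both. Over all genes 6.61% were called higher in both and 7.86% lower in both. The sources carry labels of the same 12 samples, so a call in both is not an independent replication.

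**Figure D1:**
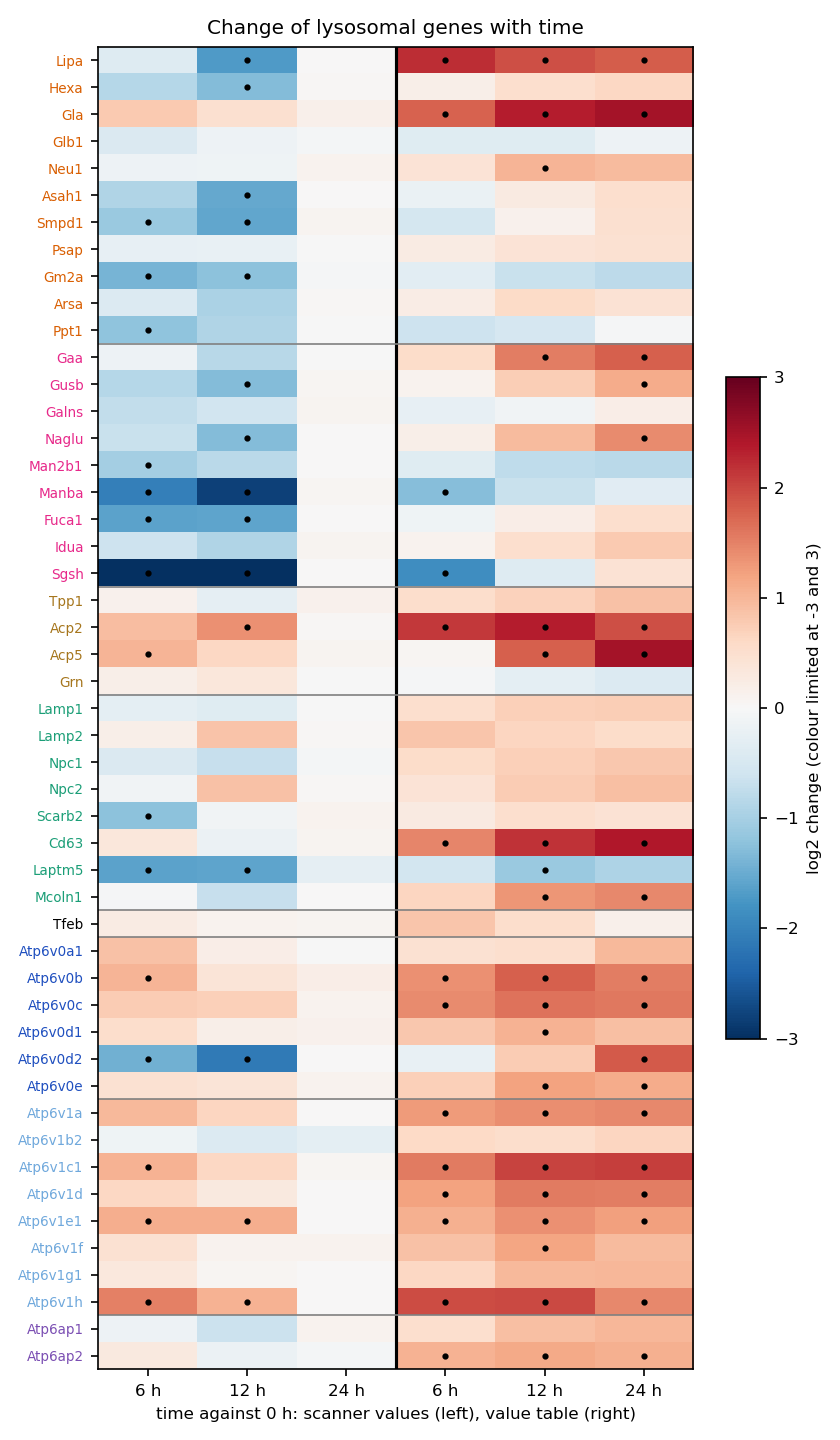
Log2 change of the 49 measured members at 6, 12 and 24 h against 0 h, from scanner values in the 3 left columns and from the value table in the 3 right columns, with colour limited at -3 and 3. Gene names are coloured by role and grey lines part the roles, in the order lipid hydrolases, glycan hydrolases, other luminal proteins, membrane proteins, Tfeb, V0, V1 and accessory pump genes. Black dots mark calls. Scanner calls number 15 at 6 h, 15 at 12 h and 0 at 24 h, and table calls 14, 20 and 19. Grn is saturated on all arrays and Psap on those at 0 h and 24 h.

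At 12 h the member medians of the sources had opposite signs. On the scanner 3 members rose and 12 fell, beside 13.7% and 16.9% of all genes (30.6% in all), and the median log2 change of members was -0.22. The table had 19 higher and 1 lower, beside 15.7% and 12.1% (27.8% in all), and the median was 0.75. By adjusted p alone the scanner had 16 members higher and 28 lower, beside 36.2% and 39.5% of all genes (75.6% in all). The table had 39 higher and 8 lower at that threshold, beside 47.1% and 26.8% (73.9% in all). In all, 20 members (40.8%) were lower on the scanner and higher in the table at that threshold, beside 11.8% of all genes. At 6 h such members numbered 10 (20.4%), beside 5.16% of all genes. The scanner split at 12 h was 1 higher and 14 lower with quantile normalization. In the table it was 12 and 0 with quantile normalization and 14 and 2 with centring.

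Both sources called 4 members alike at 12 h: the acid phosphatase Acp2 and the pump subunits Atp6v1e1 and Atp6v1h rose, and the membrane protein Laptm5 fell. Genes called alike made up 12.7% of all. Lipa, the acid lipase that frees cholesterol from its esters, was called in opposite directions, which 1.6% of all genes were.

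Tfeb, the transcription factor that drives lysosomal genes when it moves to the nucleus, had scanner levels of -1.48, -1.38 and -1.50 at 0 h, -1.33, -1.26 and -1.04 at 6 h, -1.55, -1.32 and -1.18 at 12 h and -1.47, -1.34 and -1.34 at 24 h. The samples at 6 h lay above all at 0 h by a small margin, and the change missed the threshold (log2 change 0.24, SE 0.10, limma adjusted p = 0.0519). Tfeb table ratios were 0.971, 1.00 and 1.00 at 0 h, 1.85, 1.75 and 1.71 at 6 h, 1.47, 1.38 and 1.47 at 12 h and 1.01, 1.15 and 1.15 at 24 h, higher in every sample after 0 h and highest at 6 h (log2 change 0.83, SE 0.060, limma adjusted p = 5.76e-07), without reaching 2-fold. Its messenger level does not show where the protein was in the cell.

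The promoters of members were searched for the E-box to which Tfeb binds. Stretches that hold it are shown for Gla and Atp6v0b, which rose in the table, Sgsh, which fell at 6 h, and Lamp1, which was called at no time. Sequences were those of RefSeq on GRCm38.p6, from 250 bases before to 50 after the start, and 42 of 50 members had one. CACGTG stood in 12 of them (28.6%), against 8.09% of 27025 genes. The longer TCACGTGA, which contains it, stood in 5 (11.9%) against 1.12%. Both motifs read the same on both strands. Stretches of 100 bases are shown, 5′ to 3′ on the strand of the gene, with each CACGTG in capitals, for Lamp1 (chr8:13159061-13159160, plus strand), which has 4, Gla (chrX:134601156-134601255, minus strand) and Atp6v0b (chr4:117887330-117887429, minus strand), which have 2, and Sgsh (chr11:119355511-119355610, minus strand), which has 1.
Lamp1: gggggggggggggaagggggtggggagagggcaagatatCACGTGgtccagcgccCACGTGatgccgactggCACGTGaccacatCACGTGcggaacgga
Gla: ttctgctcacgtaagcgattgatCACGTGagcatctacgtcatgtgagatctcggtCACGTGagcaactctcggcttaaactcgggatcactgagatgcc
Atp6v0b: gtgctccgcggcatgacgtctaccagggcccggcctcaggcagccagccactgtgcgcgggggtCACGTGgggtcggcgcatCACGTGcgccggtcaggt
Sgsh: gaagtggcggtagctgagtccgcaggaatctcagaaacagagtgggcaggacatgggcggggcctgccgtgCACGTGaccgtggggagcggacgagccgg

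Of the 12 measured members with CACGTG, 3 rose and 1, Sgsh, fell in the table at 6 h, and 7 rose and 0 fell at 12 h and again at 24 h. On the scanner 1 rose and 1 fell at 6 h, 0 rose and 2 fell at 12 h, and 0 were called at 24 h. Of the 29 without it, 7 rose and 1 fell in the table at 6 h, 10 rose and 1 fell at 12 h and 9 rose and 0 fell at 24 h. On the scanner 2 of these 29 rose and 8 fell at 6 h and again at 12 h, and 0 were called at 24 h. Of all genes 13.2%, 15.7% and 13.3% rose in the table at 6, 12 and 24 h, and 11.8%, 12.1% and 13% fell. The scanner shares were 10.2% and 15.9% at 6 h, 13.7% and 16.9% at 12 h, and 0.837% either way at 24 h. Counted from the start, with -1 the base before it, the motif begins at -29 in Sgsh, at -36 and -18 in Atp6v0b and at -227 and -194 in Gla. Over those with CACGTG the median log2 change at 12 h was 1.12 in the table and -0.25 on the scanner. Over the 29 with a promoter sequence and no CACGTG it was 0.64 and -0.18. These medians are descriptions, and a match of letters is not a bound site.

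The glycan hydrolases included the largest falls among the members at 6 h in both sources. Sgsh, the sulfamidase that removes sulfate groups from heparan sulfate, had scanner log2 levels of 2.60, 2.58 and 2.62 at 0 h, -0.40, -0.60 and -0.30 at 6 h, -1.16, -1.17 and -1.17 at 12 h and 2.64, 2.59 and 2.57 at 24 h. Every sample at 6 h and 12 h lay below all samples at 0 h and 24 h. The fall was 8.16-fold at 6 h (log2 change -3.03, SE 0.065, limma adjusted p = 8.95e-11) and 13.6-fold at 12 h (log2 change -3.77, SE 0.065, limma adjusted p = 1.46e-11).

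Sgsh table ratios were 1.00, 0.922 and 1.00 at 0 h, 0.265, 0.277 and 0.257 at 6 h, 0.764, 0.775 and 0.690 at 12 h and 1.29, 1.33 and 1.33 at 24 h. They were lowest at 6 h, where the 3 samples stood 3.66-fold below 0 h (log2 change -1.87, SE 0.059, limma adjusted p = 1.19e-09), and they had risen 2.79-fold from there by 12 h (log2 change 1.48, SE 0.059, limma adjusted p = 1.15e-07). The 24 h samples were all above those at 0 h. A second Sgsh probe gave a smaller scanner change at 12 h, -1.59 in place of -3.77, and a table change of -1.72 at 6 h, so the fall at 6 h was called with either probe.

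Manba, the β-mannosidase that takes the last mannose from glycoprotein chains, followed the same scanner course. Its log2 levels were 1.96, 1.97 and 1.99 at 0 h, 0.062, -0.23 and -0.039 at 6 h, -0.69, -0.87 and -0.93 at 12 h and 2.08, 2.03 and 2.00 at 24 h, with no overlap between the samples at 0 h and those at 6 h or 12 h. The scanner falls were 4.12-fold at 6 h (log2 change -2.04, SE 0.079, limma adjusted p = 4.74e-09) and 6.97-fold at 12 h (log2 change -2.80, SE 0.079, limma adjusted p = 3.58e-10). Manba table ratios were 1.00, 0.949 and 1.13 at 0 h, 0.458, 0.409 and 0.399 at 6 h, 0.655, 0.628 and 0.653 at 12 h and 0.788, 0.807 and 0.824 at 24 h. They fell 2.43-fold at 6 h (log2 change -1.28, SE 0.072, limma adjusted p = 8.89e-08) and stood 1.59-fold and 1.27-fold below 0 h at 12 h and 24 h, neither of which reached 2-fold. A second Manba probe gave -2.13 on the scanner and -1.43 in the table at 6 h.

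The other 7 glycan hydrolases were all lower on the scanner at 6 h and 12 h by adjusted p alone, from -0.15 for Gaa to -1.60 for Fuca1 at 6 h. Fuca1, which removes fucose, had scanner levels of 4.77, 4.74 and 4.74 at 0 h and 3.17, 3.09 and 3.20 at 6 h, a 3.03-fold fall, while its table ratios were 0.983, 0.889 and 0.883 at 6 h and overlapped those at 0 h. Man2b1, the α-mannosidase, fell 2.02-fold on the scanner at 6 h, a call that ended without 6 h replicate 2 (log2 change -0.99). Its table ratios were 0.590, 0.606 and 0.553 at 12 h and 0.562, 0.563 and 0.571 at 24 h, all below those at 0 h. Gusb and Naglu, which cut glucuronic acid and N-acetylglucosamine from glycosaminoglycans, fell on the scanner at 12 h, by 2.48-fold and 2.48-fold, and rose in the table at 24 h, by 2.16-fold and 2.68-fold. Gaa, which breaks down glycogen, rose 2.91-fold in the table at 12 h and had a scanner change of -0.84. Galns and Idua, which act on glycosaminoglycans, were called at no time.

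Among the lipid hydrolases Lipa was called in opposite directions by the sources at 12 h. Its scanner levels were 3.94, 3.94 and 3.91 at 0 h, 3.56, 3.52 and 3.54 at 6 h, 2.12, 2.40 and 2.17 at 12 h and 3.97, 3.91 and 3.98 at 24 h. The samples at 12 h lay below all others, 3.25-fold under 0 h (log2 change -1.70, SE 0.065, limma adjusted p = 3.29e-09) and 2.47-fold under 6 h. Lipa table ratios were 1.07, 1.00 and 0.947 at 0 h, 4.92, 4.91 and 4.28 at 6 h, 3.96, 3.92 and 3.63 at 12 h and 3.42, 3.77 and 3.52 at 24 h. Every sample after 0 h exceeded all 3 at 0 h there, by 4.67-fold at 6 h (log2 change 2.22, SE 0.074, limma adjusted p = 1.77e-09) and 3.81-fold at 12 h (log2 change 1.93, SE 0.074, limma adjusted p = 4.14e-09). 

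Gla, the α-galactosidase that trims globotriaosylceramide, was higher in both sources. Its scanner levels were 1.18, 1.23 and 1.16 at 0 h, 1.95, 1.93 and 2.03 at 6 h, 1.58, 1.84 and 1.58 at 12 h and 1.32, 1.38 and 1.30 at 24 h, 1.72-fold above 0 h at 6 h without reaching 2-fold (log2 change 0.78, SE 0.068, limma adjusted p = 2.45e-06). Gla table ratios were 1.00, 0.981 and 1.01 at 0 h, 3.53, 3.62 and 3.05 at 6 h, 5.24, 5.23 and 4.92 at 12 h and 5.46, 5.81 and 5.67 at 24 h, a rise that reached 5.14-fold at 12 h (log2 change 2.36, SE 0.066, limma adjusted p = 4.11e-10) and 5.66-fold at 24 h. In each source no sample at 6 h or 12 h overlapped those at 0 h. A second Gla probe gave a table change of 2.35 at 12 h and a scanner change of 0.069.

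The sphingolipid enzymes Smpd1 and Asah1 and the activator Gm2a were lower on the scanner. Smpd1, acid sphingomyelinase, had levels of 3.01, 2.97 and 3.04 at 0 h, 1.91, 1.83 and 1.96 at 6 h, 1.43, 1.29 and 1.62 at 12 h and 3.11, 3.08 and 3.09 at 24 h, which were 2.15-fold lower at 6 h (log2 change -1.10, SE 0.074, limma adjusted p = 3.14e-07) and 2.95-fold lower at 12 h. Smpd1 table ratios, 1.00, 0.940 and 1.04 at 0 h, 0.739, 0.669 and 0.664 at 6 h, 1.10, 1.11 and 1.03 at 12 h and 1.37, 1.36 and 1.40 at 24 h, lay below the samples at 0 h at 6 h without reaching 2-fold and exceeded them at 24 h. Gm2a, which presents ganglioside GM2 to hexosaminidase A, had levels of 4.42, 4.43 and 4.43 at 0 h, 3.13, 2.88 and 3.11 at 6 h and 3.27, 3.17 and 3.16 at 12 h, a 2.61-fold fall at 6 h. Its table ratios fell short of 2-fold throughout and were 0.614, 0.598 and 0.572 at 24 h, below every sample at 0 h. A second Gm2a probe was called lower in the table at 12 h (-1.37) and 24 h (-1.49). Asah1, acid ceramidase, fell 2.88-fold on the scanner at 12 h, and Hexa, the α subunit of hexosaminidase A, fell 2.46-fold. The table did not show these falls. There Asah1 had a log2 change of 0.27 at 12 h, short of 2-fold, and the mean of Hexa was lowest at 0 h and highest at 24 h.

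Ppt1, which removes palmitate from proteins, was 2.32-fold lower on the scanner at 6 h, with levels of 0.15, -0.14 and 0.036 against 1.28, 1.12 and 1.28 at 0 h, and 1.54-fold lower in the table, short of the 2-fold limit. Glb1, the β-galactosidase, was called at no time, with table changes at 12 h of -0.36 and, on a second Glb1 probe, -0.58. For Psap, whose precursor yields the saposin activators, the saturated signal at 0 h was at least 1.18-fold that at 6 h on the scanner, while its table ratios were 1.25, 1.10 and 1.21 at 6 h. Neu1, the sialidase, was called only in the table at 12 h, at 2.02-fold, and a second Neu1 probe had 0.90 (log2), short of the limit. Arsa, arylsulfatase A, was called at no time, with changes at 12 h of -0.94 on the scanner and 0.58 in the table.

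**Figure D2:**
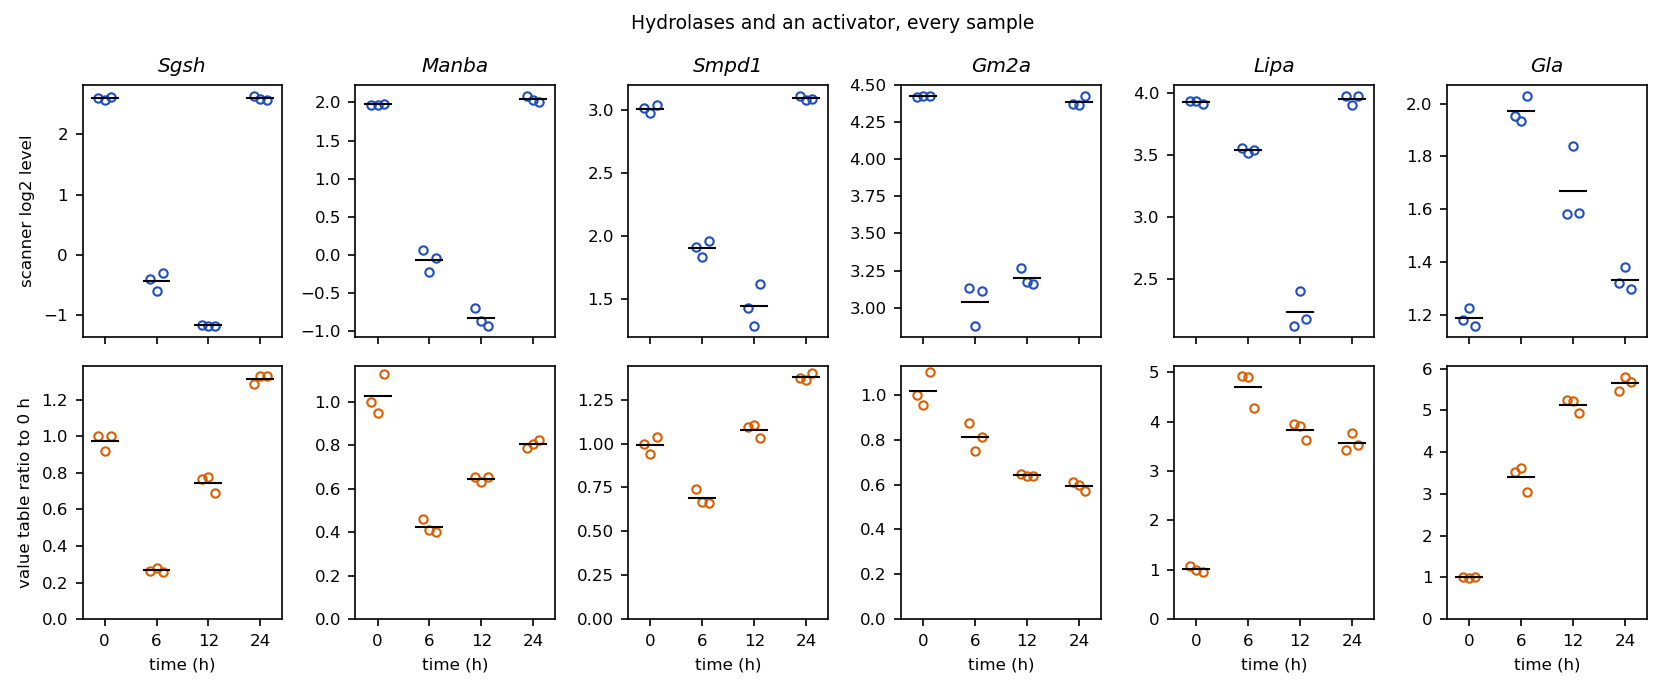
Values of Sgsh, Manba, Smpd1, Gm2a, Lipa and Gla in each of the 3 samples at 0, 6, 12 and 24 h: scanner log2 level above, table ratio to 0 h below, with the table axes starting at 0. Circles are samples and bars their means. Scanner levels of the first 5 are low at 6 h or 12 h and at 24 h lie near those at 0 h, while table ratios of Lipa and Gla exceed 3 in every sample after 0 h.

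The 2 acid phosphatases each had a rise in both sources, Acp5 at different times. Acp2, which removes phosphate in the lysosome, had scanner levels of 0.96, 0.90 and 0.88 at 0 h, 1.86, 1.82 and 1.83 at 6 h, 2.25, 2.36 and 2.27 at 12 h and 0.97, 0.95 and 0.96 at 24 h, and rose 2.60-fold by 12 h (log2 change 1.38, SE 0.041, limma adjusted p = 4.79e-10). Acp2 table ratios, 1.03, 1.00 and 1.00 at 0 h, 4.48, 4.38 and 4.31 at 6 h, 5.30, 5.13 and 5.05 at 12 h and 3.80, 3.81 and 3.91 at 24 h, rose 4.35-fold at 6 h and 5.12-fold at 12 h (log2 change 2.36, SE 0.040, limma adjusted p = 1.78e-11). The samples at 6 h and 12 h lay above all at 0 h in both sources.

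Acp5, the tartrate-resistant phosphatase known from osteoclasts and macrophages, had scanner levels of 2.61, 2.59 and 2.58 at 0 h, 3.57 and 3.65 at 6 h and 3.21, 3.17 and 3.29 at 12 h. The rise at 6 h was 2.02-fold on 2 samples, and its log2 change without 6 h replicate 3 was 0.97, under the limit. With quantile normalization the change of Acp5 was 0.81. Acp5 table ratios, 1.00, 0.943 and 1.14 at 0 h, 1.11, 1.09 and 1.02 at 6 h, 3.60, 3.66 and 3.41 at 12 h and 5.89, 5.59 and 5.95 at 24 h, overlapped 0 h at 6 h and then rose 3.47-fold by 12 h and 5.67-fold by 24 h (log2 change 2.50, SE 0.072, limma adjusted p = 5.06e-10). Tpp1, a tripeptidyl peptidase, was not called on the probe used, with table ratios of 1.83, 1.87 and 1.87 at 24 h, but a second Tpp1 probe was called lower on the scanner at 12 h (-1.19) and higher in the table at 24 h (1.34). Granulin gave table ratios of 0.812, 0.808 and 0.805 at 12 h on its saturated probe, whereas an unsaturated second probe had a scanner change of -1.22 and a table change of -0.22 at 6 h.

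Among the 8 membrane and export proteins, scanner calls were 2 falls at 6 h and 1 at 12 h, beside 15.9% and 16.9% of all genes. Laptm5, a lysosomal adaptor of blood cells that sorts receptors for degradation, had levels of 3.93, 4.01 and 3.93 at 0 h, 2.35, 2.33 and 2.36 at 6 h, 2.28, 2.44 and 2.39 at 12 h and 3.70, 3.70 and 3.68 at 24 h. The samples at 6 h and 12 h were far below those at 0 h, 3.06-fold at 6 h (log2 change -1.61, SE 0.045, limma adjusted p = 4.72e-10) and 3.01-fold at 12 h (log2 change -1.59, SE 0.045, limma adjusted p = 3.61e-10). Laptm5 table ratios were 1.02, 0.976 and 1.00 at 0 h, 0.721, 0.685 and 0.648 at 6 h, 0.507, 0.460 and 0.415 at 12 h and 0.511, 0.515 and 0.547 at 24 h, and all samples after 0 h lay below it, with a fall of 2.18-fold at 12 h (log2 change -1.12, SE 0.074, limma adjusted p = 2.64e-07). In the table that call was lost with the slide of the array as a block (log2 change -0.94) and with quantile normalization (-0.95), and a second Laptm5 probe had -0.89.

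Scarb2, the receptor that brings glucocerebrosidase to lysosomes, fell on the scanner at 6 h alone, with levels of 3.82, 3.77 and 3.77 at 0 h, 2.71, 2.44 and 2.54 at 6 h and 3.71, 3.58 and 3.73 at 12 h. Its rise from 6 h to 12 h was 2.16-fold (log2 change 1.11, SE 0.066, limma adjusted p = 4.95e-07). Its table ratios lay between 1.14 and 1.45 in every sample after 0 h.

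Cd63, a tetraspanin of late endosomes, was called at no time on the scanner, with levels of 6.07, 6.03 and 6.04 at 0 h, 6.44, 6.33 and 6.40 at 6 h and 5.88, 5.84 and 5.87 at 12 h. Cd63 table ratios were 1.00, 0.973 and 1.06 at 0 h, 2.91, 2.78 and 2.74 at 6 h, 4.66, 4.64 and 4.35 at 12 h and 5.35, 5.15 and 5.42 at 24 h, and rose at each time against 0 h, to 5.25-fold at 24 h (log2 change 2.39, SE 0.052, limma adjusted p = 7.67e-11). No table sample after 0 h overlapped those at 0 h.

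Lamp1, the abundant glycoprotein of the lysosomal membrane, was called at no time. Its scanner levels were 6.50, 6.46 and 6.49 at 0 h, 6.23, 6.10 and 6.21 at 6 h, 6.14, 6.11 and 6.14 at 12 h and 6.47, 6.45 and 6.46 at 24 h, lower in every sample at 6 h and 12 h than at 0 h (log2 change -0.35, SE 0.041, limma adjusted p = 2.05e-05 at 12 h). Lamp1 table ratios, 0.989, 1.00 and 1.09 at 0 h, 1.49, 1.38 and 1.46 at 6 h, 1.70, 1.72 and 1.60 at 12 h and 1.77, 1.68 and 1.70 at 24 h, were instead higher in every sample after 0 h (log2 change 0.71, SE 0.055, limma adjusted p = 9.5e-07 at 12 h). Lamp2, its relative that serves chaperone-mediated autophagy, was higher in both sources at 12 h, 1.82-fold on the scanner and 1.56-fold in the table, short of 2-fold.

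The cholesterol exporters Npc1 and Npc2, which hand cholesterol on to the lysosomal membrane, differed on the scanner at 12 h. Npc2 was 1.83-fold higher, with levels of 6.27, 6.33 and 6.26 against 5.42, 5.43 and 5.40 at 0 h, and Npc1 was 1.61-fold lower, with -0.24, 0.036 and -0.21 against 0.57, 0.52 and 0.55. In the table both were higher, 1.69-fold and 1.65-fold, and none of these changes reached 2-fold. Mcoln1, a calcium channel of the lysosome, rose in the table at 12 h, by 2.51-fold, and was 1.62-fold lower on the scanner, short of the limit.

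**Figure D3:**
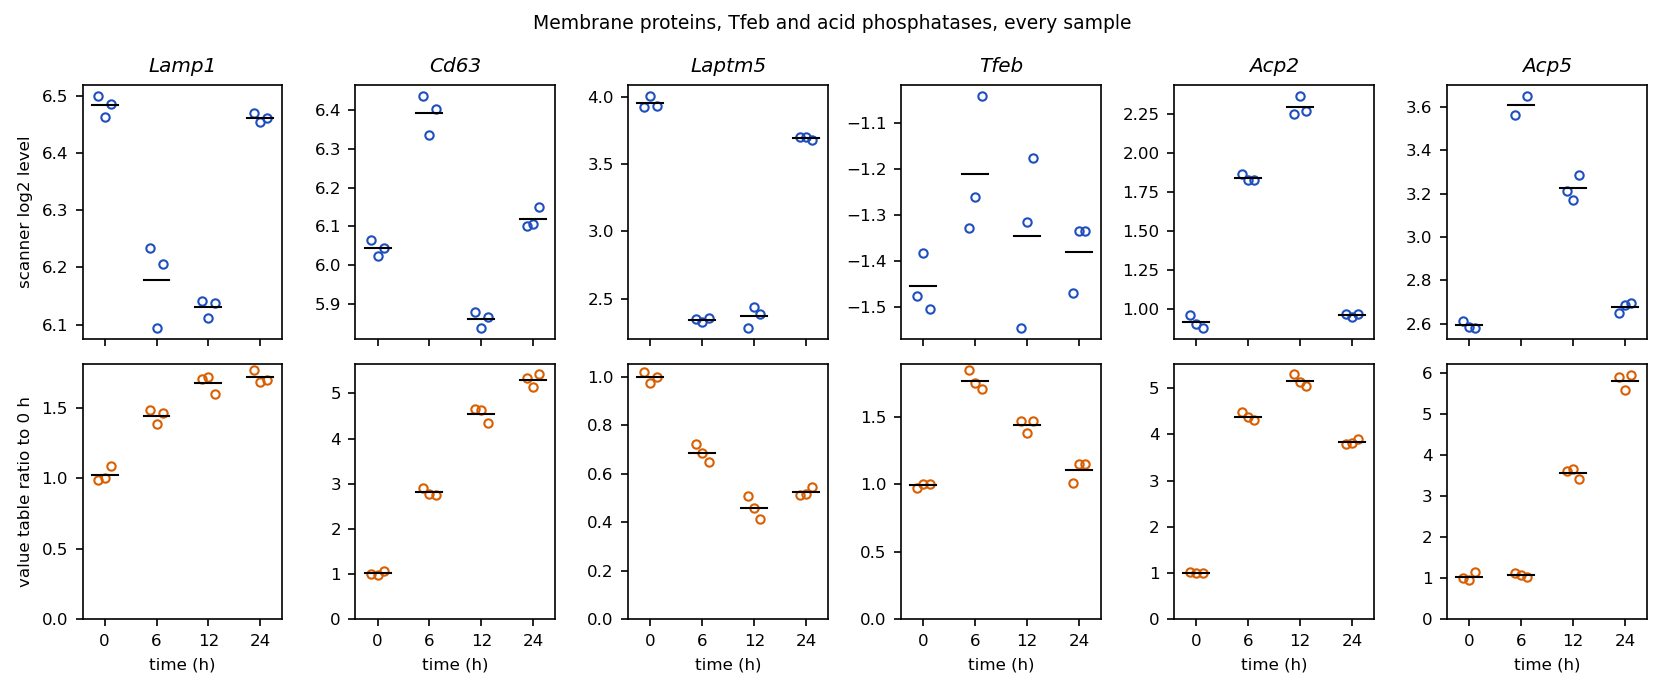
Values of Lamp1, Cd63, Laptm5, Tfeb, Acp2 and Acp5 in each of the 3 samples at 0, 6, 12 and 24 h: scanner log2 level above, table ratio to 0 h below, with the table axes starting at 0. Circles are samples and bars their means. Acp5 has 2 scanner samples at 6 h. Laptm5 falls in both sources and Acp2 rises in both, whereas Lamp1 lies below 0 h on the scanner and above it in the table at 6 h and 12 h.

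The proton pump genes mostly went the same way in both sources at 6 h. By adjusted p alone 13 of 16 pump genes were higher in both sources, 1 was lower in both and 0 were in opposite directions. Over all genes 49.6% passed in the same direction. Atp6v1h, a regulatory V1 subunit, had scanner levels of 1.30, 1.24 and 1.34 at 0 h, 2.83, 2.77 and 2.85 at 6 h, 2.27, 2.46 and 2.29 at 12 h and 1.28, 1.32 and 1.32 at 24 h. The rise was 2.87-fold at 6 h (log2 change 1.52, SE 0.055, limma adjusted p = 2.94e-09) and 2.06-fold at 12 h, where the log2 change without 12 h replicate 2 was 0.99 and was no longer called.

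Atp6v1h table ratios were 0.989, 1.00 and 1.00 at 0 h, 4.02, 3.87 and 3.65 at 6 h, 4.06, 3.86 and 3.99 at 12 h and 2.61, 2.95 and 2.60 at 24 h, a rise of 3.85-fold at 6 h (log2 change 1.95, SE 0.060, limma adjusted p = 9.58e-10) and 3.98-fold at 12 h. In both sources the samples at 6 h and 12 h lay above all those at 0 h. A second Atp6v1h probe gave changes of 1.52 on the scanner and 2.01 in the table at 6 h, and 0.93 and 2.05 at 12 h.

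Atp6v1c1, which holds the V1 stalk to the membrane sector, had scanner levels of 1.90, 1.98 and 1.94 at 0 h, 3.02, 2.87 and 3.04 at 6 h, 2.57, 2.61 and 2.52 at 12 h and 1.99, 2.04 and 1.97 at 24 h, 2.06-fold higher at 6 h (log2 change 1.04, SE 0.052, limma adjusted p = 3.43e-08). Atp6v1c1 table ratios were 1.00, 0.959 and 1.04 at 0 h, 3.27, 2.72 and 2.81 at 6 h, 4.31, 4.09 and 3.89 at 12 h and 4.18, 4.25 and 4.21 at 24 h, 2.93-fold higher at 6 h (log2 change 1.55, SE 0.072, limma adjusted p = 2.07e-08). Samples at 6 h and 12 h did not overlap those at 0 h in either source.

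Atp6v1e1, a subunit of the peripheral stalks, had scanner levels of 2.70, 2.67 and 2.73 at 0 h, 3.98, 3.58 and 3.83 at 6 h, 3.82, 3.73 and 3.79 at 12 h and 2.74, 2.75 and 2.67 at 24 h, a 2.14-fold rise at 6 h (log2 change 1.10, SE 0.085, limma adjusted p = 1.04e-06). Atp6v1e1 table ratios were 1.00, 0.942 and 1.03 at 0 h, 2.34, 1.96 and 1.98 at 6 h, 2.57, 2.51 and 2.67 at 12 h and 2.40, 2.29 and 2.25 at 24 h, 2.11-fold at 6 h (log2 change 1.08, SE 0.073, limma adjusted p = 3.54e-07), where leaving out 6 h replicate 1 gave a log2 change of 0.99 and ended the call. So did centring (0.95) and quantile normalization (0.84). At 6 h and 12 h each sample exceeded all at 0 h in both sources.

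Atp6v0b, a proteolipid of the proton-carrying ring, had scanner levels of 3.82, 3.84 and 3.88 at 0 h, 4.86, 4.86 and 4.87 at 6 h, 4.27, 4.12 and 4.30 at 12 h and 4.03, 4.04 and 4.04 at 24 h, 2.02-fold higher at 6 h (log2 change 1.02, SE 0.047, limma adjusted p = 1.8e-08) and 1.30-fold at 12 h. Atp6v0b table ratios were 1.00, 0.955 and 1.19 at 0 h, 2.84, 2.46 and 2.77 at 6 h, 3.55, 3.71 and 3.52 at 12 h and 3.00, 2.87 and 3.16 at 24 h, 2.57-fold higher at 6 h (log2 change 1.36, SE 0.088, limma adjusted p = 2.41e-07) and 3.44-fold at 12 h. Again no sample at 6 h or 12 h overlapped those at 0 h. The Atp6v0b table calls ended with quantile normalization at 6 h (0.83) and at 24 h (0.95). With quantile normalization the scanner changes at 6 h were 0.74 for Atp6v0b, 0.95 for Atp6v1c1 and 0.95 for Atp6v1e1, all short of 2-fold, and 1.45 for Atp6v1h, which was still called. At 12 h that normalization gave 0.80 for Atp6v1e1 and 0.91 for Atp6v1h, and both scanner calls ended.

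The paralogues Atp6v0d1 and Atp6v0d2 encode alternative forms of the same V0 subunit, of which d1 is found in most cells and d2 in osteoclasts and some macrophages and dendritic cells. Atp6v0d1 had scanner levels of 3.42, 3.40 and 3.34 at 0 h, 3.86, 3.89 and 3.99 at 6 h, 3.48, 3.64 and 3.56 at 12 h and 3.51, 3.55 and 3.51 at 24 h, higher in every sample at 6 h than at 0 h (log2 change 0.52, SE 0.051, limma adjusted p = 5.8e-06). Atp6v0d1 table ratios were 0.990, 1.00 and 1.07 at 0 h, 1.85, 1.89 and 1.66 at 6 h, 2.14, 2.12 and 2.03 at 12 h and 1.90, 1.91 and 1.95 at 24 h, 2.05-fold higher at 12 h (log2 change 1.04, SE 0.058, limma adjusted p = 7.05e-08). Scaling ended that call, with log2 changes of 0.77 after centring and 0.69 after quantile normalization.

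Atp6v0d2 was the only pump member called lower than at 0 h. Its scanner levels were -1.50, -1.59 and -1.51 at 0 h, -3.02, -2.95 and -2.97 at 6 h, -3.74, -3.37 and -3.87 at 12 h and -1.49, -1.58 and -1.45 at 24 h, a fall of 2.73-fold at 6 h (log2 change -1.45, SE 0.11, limma adjusted p = 6.05e-07) and 4.37-fold at 12 h (log2 change -2.13, SE 0.11, limma adjusted p = 2.47e-08). With a normexp background and quantile normalization the changes were -0.63 and -0.92, which were not called. Atp6v0d2 table ratios were 0.941, 1.00 and 1.01 at 0 h, 0.955, 0.788 and 0.787 at 6 h, 1.87, 1.58 and 1.55 at 12 h and 3.53, 3.51 and 3.54 at 24 h, with overlap between 6 h and 0 h and a rise of 3.59-fold at 24 h (log2 change 1.84, SE 0.090, limma adjusted p = 2.75e-08).

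From 12 h to 24 h Atp6v0d2 was called higher in each source, at 4.44-fold on the scanner and 2.13-fold in the table. Over all genes 0.815% were called higher in both, and Atp6v0d2 was the single such member. The 2 changes are unlike. At 24 h the scanner level stood near that at 0 h (log2 change 0.023), whereas the table ratio stood above it (1.84). As the sample named 24 h is unsettled, the 2 calls are not taken as agreement. With quantile normalization the table change of Atp6v0d2 was 0.93 (limma adjusted p = 0.0787), and with a normexp background and quantile normalization together the scanner change was 0.998 (log2), so each call ended.

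At 12 h the pump median was 0.25 on the scanner, beside -0.03 over all genes, and 1.19 in the table, beside 0.22. Scanner calls among the 16 pump genes were 2 higher and 1 lower, beside 13.7% and 16.9% of all genes. In the table the pump calls were 11 higher and 0 lower, beside 15.7% and 12.1% of all genes. The sign of the scanner median at 12 h depended on the scaling: it was -0.09 with quantile normalization, where 7 of 16 genes lay above 0, and -0.12 with a normexp background and quantile normalization together. Table calls numbered 7 with centring, with a median of 0.92, and 5 with quantile normalization, with a median of 0.88. By sector, the table medians at 12 h were 1.12 over the 6 V0 genes, 1.38 over the 8 V1 genes and 1.02 over the 2 accessory genes. Atp6ap2, the accessory subunit also known as the prorenin receptor, rose 2.07-fold at 6 h in the table and had a scanner change of 0.28. Its table calls ended with either other scaling at each time, with log2 changes at 6 h of 0.93 after centring and 0.77 after quantile normalization. The catalytic subunit Atp6v1a rose 2.42-fold in the table and stood 1.95-fold higher on the scanner at 6 h, just short of the limit. Its partner in the V1 head, Atp6v1b2, was called at no time, with table ratios of 1.61, 1.40 and 1.56 at 6 h.

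The other pump genes were called in the table alone. Atp6v0c, the main proteolipid of the ring, and Atp6v1d, a subunit of the rotating stalk, rose 2.66-fold and 2.30-fold at 6 h, with scanner changes of 0.76 and 0.63. Atp6v0e and Atp6v1f, 2 small subunits, rose by 12 h, 2.29-fold and 2.27-fold. For Atp6v1f the call ended with centring (log2 change 0.91) and with quantile normalization (0.90). On the probes used Atp6v0a1, Atp6v1g1 and Atp6ap1 were called at no time and had table changes of 0.98, 0.99 and 0.99 at 24 h. A second Atp6v1g1 probe was called higher in the table at 12 h (1.24) and 24 h (1.20), and a second Atp6v1f probe at 6 h (1.12) and 24 h (1.28).

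**Figure D4:**
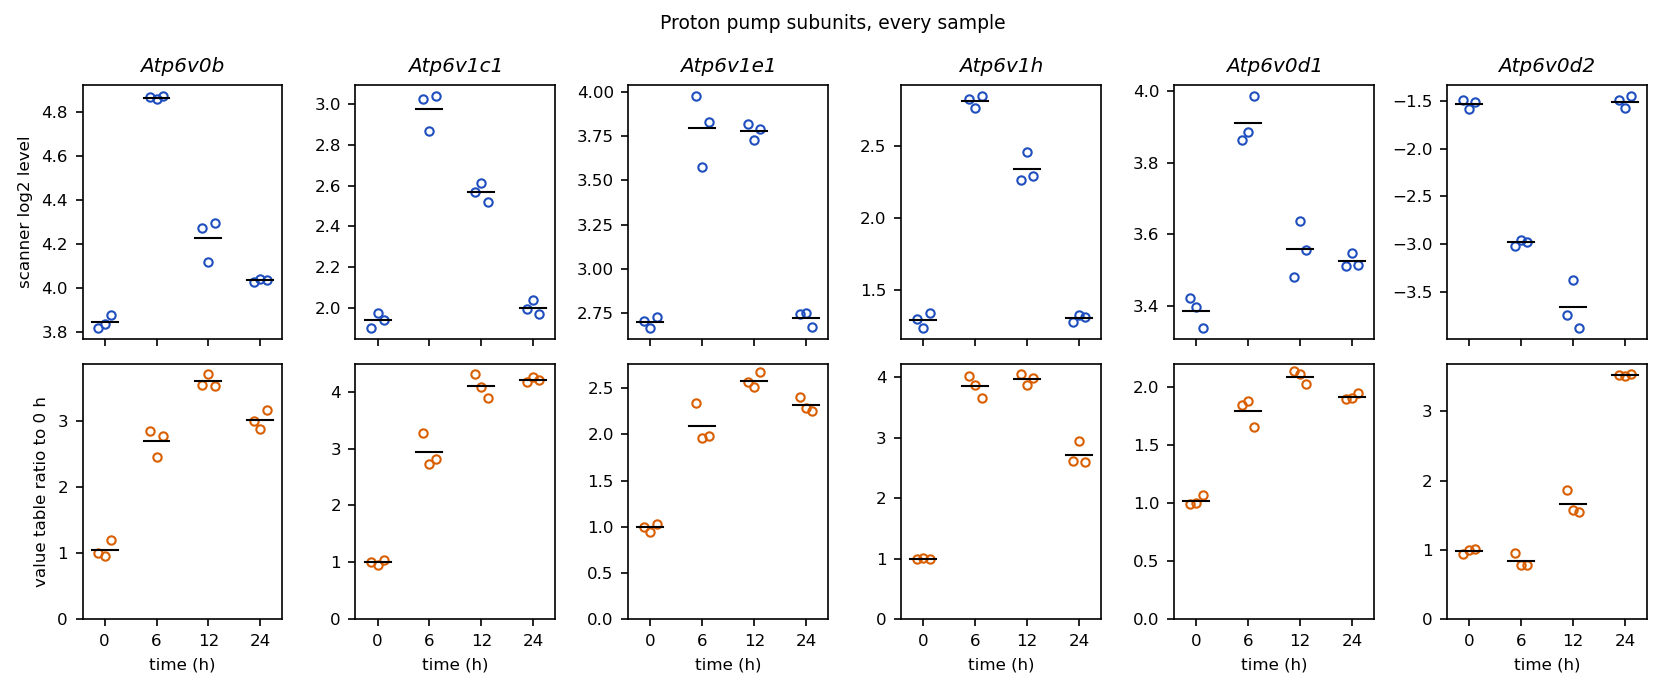
Values of Atp6v0b, Atp6v1c1, Atp6v1e1, Atp6v1h, Atp6v0d1 and Atp6v0d2 in each of the 3 samples at 0, 6, 12 and 24 h: scanner log2 level above, table ratio to 0 h below, with the table axes starting at 0. Circles are samples and bars their means. The first 5 genes are higher at 6 h than at 0 h in both sources, and Atp6v0d2 is lower at 6 h and 12 h on the scanner and highest at 24 h in the table.

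Between 6 h and 12 h few members were called. On the scanner 1 rose (Scarb2) and 1 fell (Lipa), beside 4.88% and 2.1% of all genes (6.99% in all), and the table had 2 higher (Sgsh and Acp5) and 0 lower, beside 3.07% and 2.73% (5.8% in all). On the scanner 8 members were higher and 30 lower by adjusted p alone, beside 26.3% and 21.2% of all genes (47.5% in all). The table had 31 higher and 7 lower at that threshold, beside 31.1% and 16.9% (47.9% in all), but 10 and 3 with centring and 3 and 1 with quantile normalization. The median log2 change of members was -0.32 on the scanner and 0.31 in the table. With quantile normalization the scanner had 0 higher and 1 lower.

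At 24 h the scanner changes of all 49 members against 0 h lay between -0.29 for Atp6v1b2 and 0.19 for Atp6v0b. Members called by limma numbered 0, beside 0.696% of all genes called higher and 0.141% lower, and 6 members had an unadjusted p under 0.05. By adjusted p alone 2, Atp6v1b2 and Laptm5, were lower, beside 1.28% of all genes (3.58% in all either way). From 12 h to 24 h on the scanner 12 members rose and 3 fell, beside 18.2% and 12.9% of all genes (31% in all). Those higher by adjusted p alone numbered 27 and those lower 15, beside 41.2% and 34.1% (75.2% in all). The largest of these rises was that of Sgsh, 13.6-fold, and the 3 falls were those of Acp2, Atp6v1e1 and Atp6v1h. With quantile normalization 14 rose and 1 fell.

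The table had 19 members higher and 0 lower at 24 h, beside 13.3% and 13% of all genes, and the member median was 0.91. The threshold on adjusted p alone left 42 higher and 6 lower, beside 41.3% and 31.2% (72.5% in all). With quantile normalization 14 rose and 0 fell, and with centring 18 rose and 1 fell. The largest rises were those of Acp5, Gla and Cd63, at 5.67-fold, 5.66-fold and 5.25-fold, and Laptm5 had the lowest value, a log2 change of -0.93. From 12 h to 24 h the table had 1 member higher and 0 lower, beside 1.4% and 3.17% (4.57% in all), and by adjusted p alone 16 higher and 5 lower, beside 11.7% and 32% (43.7% in all), but 10 and 0 with centring and 0 and 0 with quantile normalization. The table mean was highest at 24 h for 26 members, at 12 h for 13, at 6 h for 3 and at 0 h for 7. The scanner mean was highest at 24 h for 18, at 12 h for 4, at 6 h for 18 and at 0 h for 9. Such counts were not made over all genes, and those of the table depend on how its columns were scaled.

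**Figure D5:**
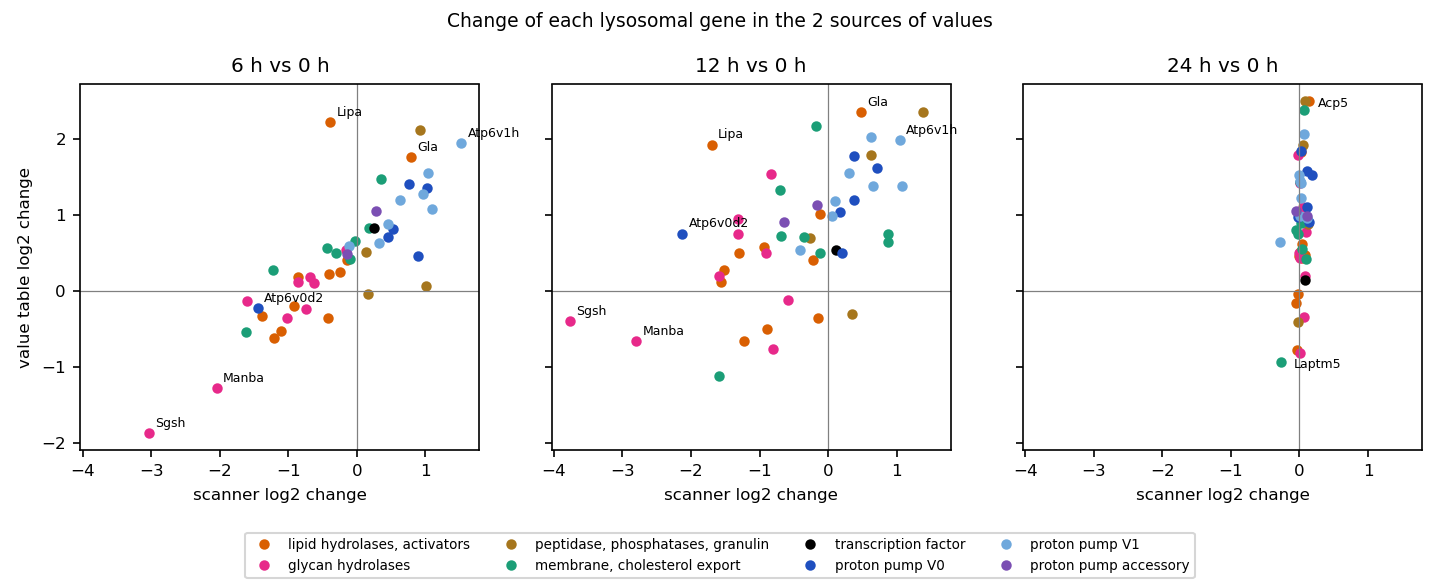
Log2 change of each of the 49 measured members against 0 h, scanner values on the horizontal axis and value table on the vertical axis, in panels for 6, 12 and 24 h. Points are genes, coloured by role, and grey lines mark no change. At 24 h the scanner changes lie between -0.29 and 0.19 while table changes reach 2.50, and at 12 h 20 members pass adjusted p alone as lower on the scanner and higher in the table.

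Of other lysosomal genes, 65 on 6 further lists were measured. On the scanner 6 rose and 8 fell at 6 h, beside 10.2% and 15.9% of all genes, and 8 rose and 10 fell at 12 h, beside 13.7% and 16.9%. The table had 17 higher and 6 lower at 6 h, beside 13.2% and 11.8% of all genes, and 22 higher and 5 lower at 12 h, beside 15.7% and 12.1%. The same shares apply to each list. The 17 further hydrolases and activators had a scanner median of -0.81 at 6 h with 0 higher and 4 lower, and a table median of 0.24 with 3 higher and 2 lower.

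Among the 18 further membrane proteins 5 rose and 3 fell at 6 h in each source. Slc11a1, which pumps iron and manganese out of the phagosome, rose 5.45-fold on the scanner (log2 change 2.45, SE 0.038, limma adjusted p = 1.24e-11) and 10.9-fold in the table (log2 change 3.45, SE 0.052, limma adjusted p = 1.08e-11). Mcoln2, a relative of Mcoln1, rose 10.7-fold and 13.4-fold, and Tpcn1, a cation channel of endosomes and lysosomes, fell 5.58-fold and 6.30-fold. Of 6 further pump genes Atp6v0e2, the paralogue of the member Atp6v0e, fell in both, 3.77-fold and 2.12-fold.

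Of 13 Tfeb relatives and nutrient sensors 1 rose and 0 fell at 6 h on the scanner and 6 rose and 0 fell in the table. Of 5 genes that tag enzymes with mannose phosphate or bind that tag, the scanner had 0 calls at 6 h and the table had 1, a rise. The same counts held for 6 tethering genes of the HOPS and CORVET complexes.

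Markers of cell types that such cultures can hold also differed between times. All 8 dendritic cell markers had a probe, and their summed linear scanner level, relative to the 75th percentile, was 466 to 488 at 0 h, 459 to 517 at 6 h, 496 to 556 at 12 h and 461 to 471 at 24 h. The sum over 7 measured macrophage markers was 166 at 0 h, 149 to 166 at 6 h, 278 to 306 at 12 h and 164 to 172 at 24 h. Of these 7, 2 rose and 3 fell on the scanner at 12 h, and 1 rose and 5 fell in the table. At that time 13.7% of all genes rose and 16.9% fell on the scanner, and 15.7% and 12.1% in the table. The sums for 8 neutrophil markers were 296 to 304 at 0 h and 335 to 383 at 12 h, and those for 8 markers of mast cells, basophils and eosinophils 37 to 37.9 and 72.6 to 74.5, with Ms4a2 not well above background at 0, 6 or 24 h. The calls at 12 h did not follow these sums throughout. Of the 8 neutrophil markers 0 rose and 1 fell on the scanner, and 0 rose and 5 fell in the table. By adjusted p alone 4 were higher and 4 lower on the scanner. Of 7 mast cell, basophil and eosinophil markers kept by the filter, 2 rose and 0 fell on the scanner at 12 h. The table had 0 higher and 3 lower. The shares of all genes just given apply. By 24 h the table had 8 of 8 neutrophil markers and 7 of 7 mast cell, basophil and eosinophil markers kept by the filter called lower. The scanner had 0 calls on either list at 24 h, beside 0.837% of all genes. Of the 8 dendritic cell markers 1 rose and 1 fell in the table at 24 h, beside 13.3% and 13% of all genes. Their log2 changes ranged from -1.86 for Ciita to 4.38 for Flt3. By adjusted p alone 1 was higher and 6 were lower, beside 41.3% and 31.2% of all genes. B, T and NK cell markers summed to at most 1.45. Such sums are led by the brightest probes, so they do not compare the amounts of cell types with each other. Osteoclast markers, which include the members Acp5 and Atp6v0d2, summed to 26.9 to 27.7 at 0 h, 23.2 to 36.5 at 6 h and 28.8 to 30.4 at 12 h. Of the 7 kept by the filter, 4 rose and 1 fell in the table at 12 h, and 4 rose and 0 fell at 24 h. These counts include Acp5 at both times and Atp6v0d2 at 24 h. The shares of all genes given above apply. On the scanner 0 of the 7 rose and 3 fell at 12 h, and 0 were called at 24 h. Table log2 changes of the 7 at 24 h ranged from -0.80 for Nfatc1 to 4.90 for Ctsk, the collagen-cleaving cathepsin of osteoclasts. By adjusted p alone 5 were higher and 2 lower there, beside 41.3% and 31.2% of all genes. The part of these cells in the changes of lysosomal genes was not tested.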

How the data were processed

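The deposited scanner files hold intensities from Agilent Feature Extraction 9.1.3.1, per the submitters' processing notes, with a processed signal that is background-subtracted on a linear scale, per the file headers. The table that the authors deposited holds linear ratios to the median at 0 h, with a lowest ratio of 0.01. Its scaling and the genome build are not given in the sources used here. Log2 was taken here of the deposited intensities and ratios. For scanner files the 75th percentile of 43379 non-control spots was subtracted from each array, 732 outlier spots were left out, and spots of a probe were averaged. Of these outlier spots 628 lay on the array of 6 h replicate 2.

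The filter retained probes that were well above background on all arrays of 1 or more groups (23492 of 41174), and the same probes were used from the table. Names came from accessions matched to RefSeq genes of GRCm38.p6, and a gene was represented by its brightest retained probe on average. Probes without a symbol counted under their own identifier. Of 20 members with 2 kept probes, 0 had opposite calls in any comparison, and calls against 0 h that differ are given beside the gene.

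limma 3.58.1 in R 4.3.3 (with data.table, version 1.17.8) fitted 4 group means to 12 samples in each source, with 8 residual degrees of freedom, two-sided p-values and Benjamini-Hochberg adjustment over all genes. The members and lists were chosen with earlier results of these data known. Members named with values for each sample are those called alike in both sources at 6 h or 12 h, those called in opposite directions, the 5 largest rises and falls per time and source, Atp6v0d1 and Atp6v0d2, Tfeb and Lamp1. The rule gave 30 members. Of the further lysosomal genes it took up to 3 per list, those called alike at 6 h with the largest scanner change. 1 of these is not reported here. Values of Scarb2, Psap, Asah1, Hexa, Gusb, Naglu, Neu1, Arsa, Gaa, Mcoln1, Atp6v0a1, Atp6v0c, Atp6v0e, Atp6v1a, Atp6v1d, Atp6v1g1 and Atp6ap1 were added after they had been seen. The normexp alternative (offset 50) used the median signal of a spot, since no mean signal was in the files. Replicate numbers did not pair the samples. The fit was tested on simulated data: it missed the first criterion set for the number of changed genes recovered, which was then replaced by one on genes of low spread that it met, with no change to the fit.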

Additional observations from a re-analysis of the deposited data

How the results depend on the processing

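Among the named members no called change took the opposite sign under another setting. A count of calls has no sign to reverse, and the signs of some group medians depended on the scaling, as given above. Without the fold minimum the counts of members called at 6 h, 12 h and 24 h against 0 h, 12 h against 6 h and 24 h against 12 h were 43, 44, 2, 38 and 42 on the scanner and 43, 47, 48, 38 and 21 in the table. Quantile normalization gave 1 scanner call between 12 h and 6 h, and table counts of 8 at 6 h, 12 at 12 h and 0 between 24 h and 12 h. Keeping only probes well above background on all arrays left 1 table call between 12 h and 6 h. With the slide as a fixed block, an alternative chosen for the table after seeing the data, its calls were 29 at 24 h against 0 h and 4 between 12 h and 6 h.

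Leaving out 1 sample at a time, the scanner counts in the same order ranged over 14 to 15, 14 to 16, 0 to 0, 2 to 3 and 14 to 16, and the table counts over 13 to 14, 19 to 22, 19 to 23, 2 to 4 and 1 to 1. The 4 calls between 12 h and 6 h arose without 6 h replicate 1, without 12 h replicate 2 or without 12 h replicate 3. With the replicate number as a block the counts were 15, 15, 0, 2 and 15 on the scanner and 14, 20, 19, 2 and 1 in the table, so the replicate block changed no count. Deviations of same-numbered samples correlated at a mean r of 0.006 on the scanner and 0.008 in the table, so the numbers were not taken as pairs.

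The 37 scanner calls of named members gave 569 pairs of a call and a setting, including fits without 1 sample. Of these pairs 539 kept the call and 30 did not. For the 38 calls in the table there were 517 such pairs, of which 498 kept the call and 19 did not. Most of the lost calls in each source came with another scaling, so the pooled counts understate how far calls depend on it. With quantile normalization the pump rises at 6 h numbered 1 on the scanner and 2 in the table, against 4 and 8 in the main fit. Within slides the scanner gave 14 calls at 6 h against 0 h, 3 between 12 h and 6 h and 14 between 24 h and 12 h, the first and last resting on 1 array of a group that is assumed to vary like the others. No slide held both 0 h and 12 h, or 0 h and 24 h. With the slide as a random block (correlation 0.234) the scanner members called at 6 h and 12 h were 5 and 3 higher and 10 and 12 lower. Saturation limits Grn and Psap, and 3 samples per group limit all other values.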
